A study of Mus musculus with 4 samples.

Results

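The gluconeogenesis and FOXO1 fasting genes described here are G6pc, Pck1, Fbp1, Pcx, Slc37a4, Ppargc1a, Foxo1, Igfbp1, Irs2 and Pdk4, 10 of the 31709 genes on the array. They were taken by name, as the probes whose gene name or transcript belonged to 1 of these symbols, which gave 12 of 39429 probes: 2 for Ppargc1a, 2 for Foxo1 and 1 for each other gene. The mice were male C57BL/6 on a chow diet that had fasted for 4 h before the liver was frozen. IlrunKO mice carry a global knockout of Ilrun, which encodes a protein that dampens inflammatory signalling, and the controls were wild type (WT); ages are not given in the labels. RNA of 4 IlrunKO and 4 WT liver samples was hybridised to 4 two-colour Agilent arrays, each with 1 sample of either genotype. IlrunKO RNA carried the dye Cy5 on arrays 1 and 2 and Cy3 on arrays 3 and 4.

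Between meals the liver makes glucose from lactate, alanine and glycerol and releases it into the blood. Pyruvate carboxylase, phosphoenolpyruvate carboxykinase, fructose-1,6-bisphosphatase and glucose-6-phosphatase carry out the steps that glycolysis cannot run backwards. The transcription factor FOXO1 raises several of these genes during fasting, while insulin, through IRS proteins and the kinase AKT, keeps FOXO1 out of the nucleus, and glucagon acts through cyclic AMP and CREB. Igfbp1 is a classic gene repressed by insulin, Irs2 is itself raised by FOXO1, and Pdk4 encodes a kinase that shuts off pyruvate dehydrogenase so that pyruvate is spared for glucose.

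All 12 probes were well above background in all 8 channels, and between 60.0% and 67.3% of all probes were in each channel. No spot was saturated, and the files gave 1 array design and 1 scan date. The labels call the samples biological replicates; whether animals were pooled is not stated. The Ilrun transcript, measured as a check of the labels, stood at a log2 ratio of -4.21 ± 0.24 (SD, n = 4) at its brighter probe, 18.5-fold lower in IlrunKO. Its dimmer probe stood at -2.15 ± 0.34 (SD, n = 4) and was well above background in 1 of 4 IlrunKO and 4 of 4 WT channels. Ratios given here are log2 of IlrunKO over WT with the SD over 4 arrays. The words rose and fell are kept for an adjusted p under 0.05 in limma, fitted over 19702 genes with a dye term. This was met by 271 genes (1.38%), 141 higher and 130 lower in IlrunKO (52.0% higher). The share of higher calls was 41.9% of 62 genes with Agilent processed signals and 39.3% of 28 genes with scaling between arrays, and the single gene called with median centring was lower.

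Of the 10 genes, 1 fell, 0 rose and 9 did not pass. The gene that fell was G6pc, against 0.66% of all genes called lower. An unadjusted p under 0.05 was reached by 6 of the 10, against 20.5% of all genes. Of the 6, 5 were lower (G6pc, Igfbp1, Fbp1, Irs2 and Pdk4) and 1 was higher (Pcx). Mean ratios lay below 0 for 8 of the 10, against 50.6% of all genes, with a median of -0.17 against -0.00143 over all genes. On all 4 arrays the ratio was below 0 for 4 of the 10, namely G6pc, Igfbp1, Foxo1 and Pdk4, against 11.6% of all genes. The 4 IlrunKO levels lay wholly below the 4 WT levels for 2 of the 10, G6pc and Igfbp1, against 4.21% of all genes. By probe, 1 of 12 passed, against 1.52% of all probes tested. The 10 genes were chosen with earlier results of these data known, so these contrasts with all genes are a description and not a test. The part of that choice in them was not tested.

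**Figure D1:**
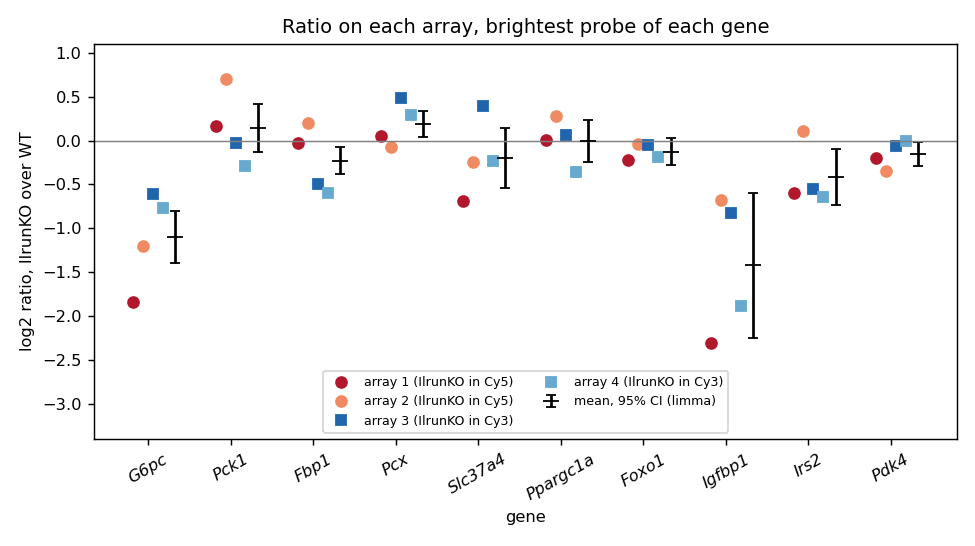
Log2 ratio of IlrunKO over WT (vertical axis) for the brightest probe of each gene (horizontal axis). Circles are arrays with IlrunKO in Cy5 and squares arrays with IlrunKO in Cy3; black marks are the limma mean with its 95% confidence interval. G6pc and Igfbp1 lie below 0 on all 4 arrays, while Pck1 lies above 0 on arrays 1 and 2 and below 0 on arrays 3 and 4.

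G6pc encodes the catalytic subunit of glucose-6-phosphatase, which frees glucose for export as the last step of gluconeogenesis and of glycogen breakdown. Its probe lies at chr11:101238947-101239006 of mouse genome mm9, on the plus strand. The normalised level, in log2 intensity, was 13.11, 13.54, 13.74 and 13.82 in IlrunKO samples 1 to 4 and 14.94, 14.74, 14.35 and 14.58 in WT samples 1 to 4. The highest IlrunKO sample was thus below the lowest WT sample, and the sample with the lowest level shared array 1 with the WT sample of the highest level. Ratios were -1.84, -1.20, -0.61 and -0.76 on arrays 1 to 4, a mean of -1.10 ± 0.55 (SD, n = 4). G6pc was 2.15-fold lower (95% confidence interval 1.75 to 2.64, adjusted p = 0.0361), the 18th lowest mean ratio of 19702 genes.

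The fall of G6pc differed in size between the dye orientations, at -1.52 with IlrunKO in Cy5 and -0.69 with IlrunKO in Cy3, a difference that did not pass in the dye term (adjusted p = 0.182). Its call was lost without the dye term, with Agilent processed signals, with median centring and with scaling between arrays. It was also lost without array 3 and without array 4. Over 17 alternatives the genotype term of its fit ran from -1.26 to -0.94 and its adjusted p from 0.000520 to 0.182. With 1 array left out, this term lies midway between the averages of the dye orientations and is not the plain mean. Without array 3 the term stood at -1.14 and without array 4 at -1.06, in fits whose residual spread came from arrays 1 and 2 alone.

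Igfbp1 encodes a liver-secreted protein that binds insulin-like growth factors in blood. Its probe lies at chr11:7102442-7102501 of mm9, on the plus strand. Levels were 12.85, 13.92, 13.58 and 13.25 in IlrunKO samples 1 to 4 and 15.15, 14.59, 14.41 and 15.13 in WT samples 1 to 4. All IlrunKO livers were below all WT livers, and the SD within either genotype, 0.46 in IlrunKO and 0.38 in WT, was the largest of the 10 genes. Ratios were -2.31, -0.67, -0.82 and -1.88, a mean of -1.42 ± 0.80 (SD, n = 4), the 9th lowest of 19702 genes. The mean was a 2.68-fold difference, with a 95% confidence interval of 1.52 to 4.74, and did not pass (adjusted p = 0.109). Arrays 1 and 4 held the lowest ratios, 1 in either dye orientation, and the orientation means were alike at -1.49 (Cy5) and -1.35 (Cy3). Without array 2 the genotype term of the fit was -1.83 and passed, and without array 1 it was -1.01 and did not. It also passed in the separate-channel model, and adjusted p over 17 alternatives ran from 0.00910 to 0.270.

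**Figure D2:**
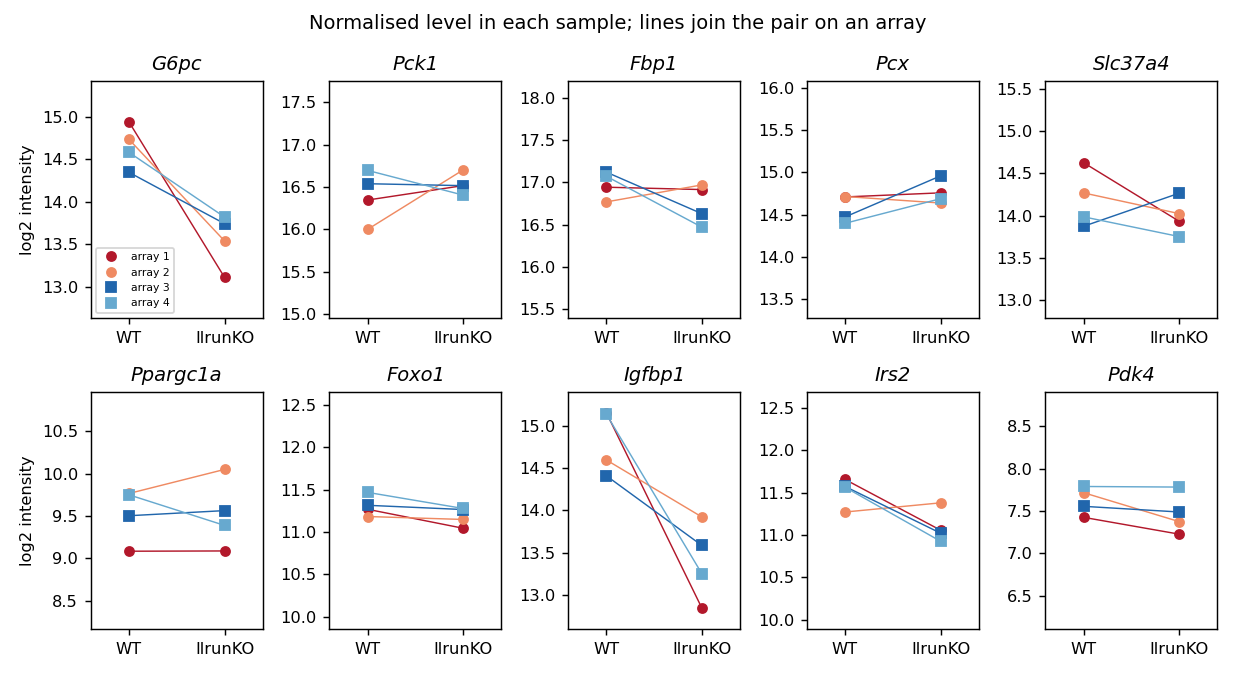
Normalised log2 intensity (vertical axis, spanning the same range in every panel) of each gene's brightest probe in WT and IlrunKO livers (horizontal axis); each line joins the pair of samples on 1 array. The 4 IlrunKO points lie below the 4 WT points for G6pc (at most 13.82 against at least 14.35) and Igfbp1 (at most 13.92 against at least 14.41), and overlap them for the other genes.

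Irs2 encodes the insulin receptor adaptor that carries much of the liver's insulin signal, and its probe lies at chr8:11004490-11004549 of mm9, on the minus strand. Levels were 11.06, 11.38, 11.02 and 10.92 in IlrunKO samples and 11.66, 11.27, 11.57 and 11.56 in WT samples. On 3 arrays the IlrunKO sample was lower (-0.60, -0.55 and -0.64 on arrays 1, 3 and 4), and on array 2 it was higher (0.11), where the WT level was the lowest of the 4. The mean of -0.42 ± 0.35 (SD, n = 4) did not pass (adjusted p = 0.165). Without array 2 the genotype term of the fit was -0.60 and passed, and without array 1 it was -0.24.

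Pdk4, the pyruvate dehydrogenase kinase of fasting, had its probe at chr6:5433441-5433500 of mm9, on the minus strand. Levels were 7.23, 7.37, 7.49 and 7.78 in IlrunKO samples and 7.43, 7.72, 7.56 and 7.79 in WT samples, in overlapping ranges. Ratios were -0.20, -0.34, -0.07 and -0.01, a mean of -0.15 ± 0.15 (SD, n = 4, adjusted p = 0.197), with a 95% interval from -0.29 to -0.02. In the authors' deposited table the same probe had a mean of -0.22.

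G6pc, Igfbp1 and Irs2 had the lowest mean ratios of the 10 genes, and their promoters are shown because FOXO1 is known to act through insulin response elements in the upstream regions of such genes. The sequences are the 250 bases before the start of each gene in the RefSeq promoter table of genome GRCm38.p6, 5′ to 3′ along the gene, and capitals mark a match to the insulin response element core CAAAACA on either strand.
G6pc, chr11:101367466-101367715, plus strand: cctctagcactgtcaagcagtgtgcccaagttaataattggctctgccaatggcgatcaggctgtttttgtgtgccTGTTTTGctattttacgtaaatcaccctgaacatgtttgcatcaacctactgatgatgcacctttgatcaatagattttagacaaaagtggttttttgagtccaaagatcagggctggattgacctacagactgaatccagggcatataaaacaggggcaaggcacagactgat
Igfbp1, chr11:7197537-7197786, plus strand: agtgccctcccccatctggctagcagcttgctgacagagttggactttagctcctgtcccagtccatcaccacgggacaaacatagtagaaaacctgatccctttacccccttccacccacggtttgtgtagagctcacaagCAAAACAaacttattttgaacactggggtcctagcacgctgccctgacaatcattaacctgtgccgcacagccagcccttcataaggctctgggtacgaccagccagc
Irs2, chr8:11008930-11009179, minus strand: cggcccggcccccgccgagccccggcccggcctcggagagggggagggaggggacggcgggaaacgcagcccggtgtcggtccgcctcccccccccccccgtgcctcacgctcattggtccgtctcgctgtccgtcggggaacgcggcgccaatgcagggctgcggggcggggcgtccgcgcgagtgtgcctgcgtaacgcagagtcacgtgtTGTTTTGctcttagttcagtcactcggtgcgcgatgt
The match began 174 bases before the start of G6pc and 37 bases before that of Irs2, on the opposite strand of both, and 108 bases before the start of Igfbp1, on the gene's own strand. No other gene of the 10 held CAAAACA in its 1 or more windows (13 windows for the 10 genes), against 5.56% of 32851 windows in the table. The forkhead core GTAAACA and the full cyclic AMP response element TGACGTCA, held by 3.17% and 1.55% of all windows, had 0 matches in the 13 windows. The partial element TGACG, which overlaps the full one and was held by 17.8% of all windows, was matched in Pck1, Slc37a4 and Ppargc1a. A match is a stretch of letters, and binding was not measured.

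Pck1 is shown in the same way because its ratio had no common direction although it is a fasting gene like G6pc; capitals mark the TGACG partial element on the opposite strand, which began 90 bases before the start.
Pck1, chr2:173152823-173153072, plus strand: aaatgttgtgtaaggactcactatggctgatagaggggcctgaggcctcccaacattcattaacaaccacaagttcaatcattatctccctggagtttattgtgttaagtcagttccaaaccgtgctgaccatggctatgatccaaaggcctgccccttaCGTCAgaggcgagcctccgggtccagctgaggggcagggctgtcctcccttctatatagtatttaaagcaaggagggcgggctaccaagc
Over all genes tested that had a promoter in the table, 7 of 590 genes with CAAAACA were called (1.19%) and 175 of 11181 genes without it (1.57%), with median ratios of -0.00515 and -0.000615. This count was made after the match in G6pc, Igfbp1 and Irs2 had been seen.

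The other enzymes of glucose output did not pass. Pcx encodes pyruvate carboxylase, which turns pyruvate into oxaloacetate in mitochondria (probe chr19:4621610-4621669 of mm9, plus strand). Levels were 14.76, 14.64, 14.96 and 14.69 in IlrunKO samples and 14.71, 14.71, 14.47 and 14.40 in WT samples. Ratios were 0.05, -0.08, 0.49 and 0.29, above 0 on 3 of 4 arrays, with a mean of 0.19 ± 0.25 (SD, n = 4, adjusted p = 0.178). Pcx had the highest mean ratio of the 10 genes, and its levels overlapped between the genotypes.

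Pck1 encodes the cytosolic phosphoenolpyruvate carboxykinase, which commits oxaloacetate to glucose (probe chr2:172984307-172984366 of mm9, plus strand). Levels were 16.52, 16.70, 16.52 and 16.40 in IlrunKO samples and 16.35, 16.00, 16.54 and 16.70 in WT samples. The IlrunKO samples lay within the range of the WT samples except IlrunKO sample 2, which was at the top of it. Ratios were 0.17, 0.70, -0.02 and -0.29, a mean of 0.14 ± 0.42 (SD, n = 4, adjusted p = 0.526), with a 95% interval from -0.13 to 0.41. With 1 array left out the genotype term of the fit, midway between the averages of the dye orientations, ran from 0.0066 (without array 2) to 0.27 (without array 1). It did not pass. Orientation means were 0.44 with IlrunKO in Cy5 and -0.16 with IlrunKO in Cy3.

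Fbp1 encodes the liver fructose-1,6-bisphosphatase (probe chr13:62966175-62966234 of mm9, minus strand). Levels were 16.91, 16.97, 16.63 and 16.47 in IlrunKO samples and 16.94, 16.77, 17.12 and 17.07 in WT samples. Ratios were -0.03, 0.20, -0.49 and -0.60, near or above 0 with IlrunKO in Cy5 and below 0 with IlrunKO in Cy3, a mean of -0.23 ± 0.38 (SD, n = 4, adjusted p = 0.140). Fbp1 passed in 1 of 17 alternatives, the separate-channel model.

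Slc37a4 encodes the transporter that brings glucose-6-phosphate to the phosphatase inside the endoplasmic reticulum (probe chr9:44210987-44211045 of mm9, plus strand). Levels were 13.94, 14.03, 14.27 and 13.75 in IlrunKO samples and 14.63, 14.27, 13.88 and 13.99 in WT samples. Ratios were -0.69, -0.24, 0.39 and -0.23, a mean of -0.19 ± 0.44 (SD, n = 4, adjusted p = 0.476). The partner of G6pc in the same enzyme system thus lay below 0 on 3 of 4 arrays, lowest on array 1 as G6pc did, and its interval ran from -0.54 to 0.15. With 1 array left out the genotype term of its fit ran from -0.35 (without array 3) to -0.04 (without array 4), and did not pass.

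Neither upstream regulator passed. Foxo1, the forkhead factor itself, was measured by 2 probes, at chr3:52150183-52150242 and chr3:52153289-52153348 of mm9, both on the plus strand. At the brighter probe levels were 11.05, 11.15, 11.27 and 11.28 in IlrunKO samples and 11.27, 11.18, 11.32 and 11.47 in WT samples, and ratios were -0.22, -0.03, -0.05 and -0.19. The mean was -0.12 ± 0.10 (SD, n = 4, adjusted p = 0.316), and the dimmer probe had a mean of -0.22 ± 0.18 (SD, n = 4, adjusted p over all probes = 0.227), also below 0 on all 4 arrays. Both probes were lowest on arrays 1 and 4, the arrays with the lowest Igfbp1 ratios. Only transcript was measured, and FOXO1 is controlled to a large part by phosphorylation.

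Ppargc1a encodes PGC-1alpha, a coactivator that works with FOXO1 and HNF4alpha on gluconeogenic promoters. Its probes lie at chr5:51848928-51848987 and chr5:51846926-51846985 of mm9, both on the minus strand. At the brighter probe levels were 9.09, 10.05, 9.56 and 9.39 in IlrunKO samples and 9.08, 9.77, 9.504 and 9.75 in WT samples. The samples on array 1 had the lowest level of either genotype, and ratios were 0.00, 0.28, 0.06 and -0.36, a mean of -0.00 ± 0.27 (SD, n = 4, adjusted p = 0.99), with a 95% interval from -0.24 to 0.24. The dimmer probe had a mean of 0.05 ± 0.11 (SD, n = 4, adjusted p over all probes = 0.598). In the authors' deposited table the dimmer probe had ratios of 0.41 and 0.46 on arrays 1 and 2 and of -0.09 and -0.12 on arrays 3 and 4.

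**Figure D3:**
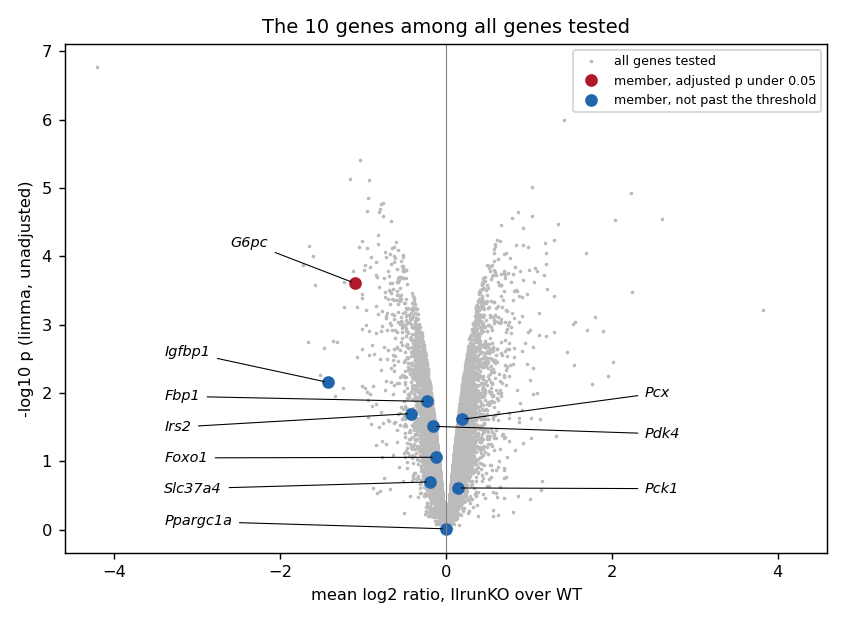
Mean log2 ratio of IlrunKO over WT (horizontal axis) against -log10 of the unadjusted limma p (vertical axis) for the 19702 genes tested, with the 10 genes named. G6pc (red) is the gene past an adjusted p of 0.05; Igfbp1 has a lower mean ratio (-1.42 against -1.10) and a larger p, and the other 8 lie between -0.42 and 0.19.

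Genes with the most similar pattern were taken as the 3 with the smallest root mean square difference of the 4 ratios. For G6pc these were Rasgrp2 (difference 0.197, mean -0.97), Ppp1r3g (0.250, mean -1.03) and Slc25a25 (0.297, mean -1.05). Of these, Ppp1r3g and Slc25a25 fell (adjusted p = 0.0254 and 0.0348). The genes were picked for ratios near those of G6pc, which fell, so their low means follow from the choice and are no separate support. Ppp1r3g directs a phosphatase to glycogen and Slc25a25 is a mitochondrial carrier. For Igfbp1 the nearest gene with a symbol was Rdh16f2 (difference 0.334, mean -1.66, adjusted p = 0.0695), with ratios of -2.34, -0.81, -1.46 and -2.05, and the other two were transcripts without a gene symbol. Likeness over 4 arrays describes these arrays alone.

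The other genes of the pathway were counted in 6 lists, 123 genes in all, of which 116 were tested. Of these, 1 rose and 1 fell (1.72%, against 1.38% of all genes), 39 had an unadjusted p under 0.05 (33.6%, against 20.5%), and the median ratio was -0.03. The gene that fell, Fgf21, entered the fit through WT channels alone. When all channels had to be well above background, 1 of these genes passed. Without array 3 or without array 4, 0 of these genes passed in limma. For each list below, the shares over all genes tested were 50.6% below 0 in mean and 20.5% with an unadjusted p under 0.05. The 22 tested genes that serve other steps of gluconeogenesis, such as shuttles, transaminases and shared glycolytic enzymes, lay above 0 in 16 cases, with a median of 0.10 and 6 unadjusted p under 0.05. Among them Gpt, the alanine aminotransferase that feeds alanine carbon into pyruvate, rose 1.52-fold with ratios of 0.52, 0.56, 0.87 and 0.49 and a mean of 0.61 ± 0.18 (SD, n = 4, adjusted p = 0.0460). Mpc2, a subunit of the mitochondrial pyruvate carrier, stood at -0.38 ± 0.19 (SD, n = 4, adjusted p = 0.0735).

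Among 24 tested FOXO family members and other known FOXO targets, 0 passed in limma (6 with an unadjusted p under 0.05), and the median was -0.02, with 14 below 0. The stress-response gene Sesn3 stood at -0.36 ± 0.19 (SD, n = 4, adjusted p = 0.0723), and Apoc3, which slows lipoprotein clearance, at 0.20 ± 0.38 (SD, n = 4, adjusted p = 0.110), above 0 on arrays 1 and 2 and below 0 on arrays 3 and 4. G6pc and Igfbp1 thus had lower ratios than any tested gene of this list, whose lowest was -0.36.

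In the insulin signalling list 0 of 21 tested genes passed in limma (10 with an unadjusted p under 0.05), and 17 lay below 0 with a median of -0.13. Trib3, a pseudokinase that binds AKT, stood at 0.88 ± 0.37 (SD, n = 4, adjusted p = 0.0546). Irs1, the other main insulin receptor adaptor, stood at -0.62 ± 0.39 (SD, n = 4, adjusted p = 0.0783), and its dimmer probe was at -0.11 (0.315 after adjustment over all probes). Of 29 tested genes of glucagon, cyclic AMP and glucocorticoid signalling, 1 fell, 12 had an unadjusted p under 0.05 and 22 lay below 0, with a median of -0.13. The gene that fell was Fgf21, a liver hormone of fasting, with a measured mean 1.67-fold lower (adjusted p = 0.0434 in limma). It was well above background in 0 of 4 IlrunKO and 4 of 4 WT channels, so that it entered the fit through WT alone. The IlrunKO level could lie below the signal measured, so the true fall could be larger. The mean also has its own error, with ratios from -0.93 to -0.53 on single arrays. Nr4a1, an early gene of cyclic AMP signalling, stood at -1.01 ± 0.83 (SD, n = 4, adjusted p = 0.0583), with ratios of -1.75, -1.56, -0.79 and 0.06.

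Relatives of Pdk4 and Igfbp1 did not pass. Among 11 genes of the pyruvate dehydrogenase complex and its kinases and phosphatases, 0 passed in limma (2 with an unadjusted p under 0.05) and the median was 0.02; the complex subunits Pdhx and Dld had the smallest p, at 0.16 (adjusted p = 0.160) and -0.18 (adjusted p = 0.231). Among 10 other genes of insulin-like growth factors and their binding proteins 0 passed (4 with an unadjusted p under 0.05), and the median was 0.01. Igfbp2 stood at 0.66 ± 0.23 (SD, n = 4, adjusted p = 0.0546), above 0 on all 4 arrays and so opposite in sign to Igfbp1, with another probe at 0.70. Igfbp5 stood at 0.35 ± 0.32 (SD, n = 4, adjusted p = 0.142).

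**Figure D4:**
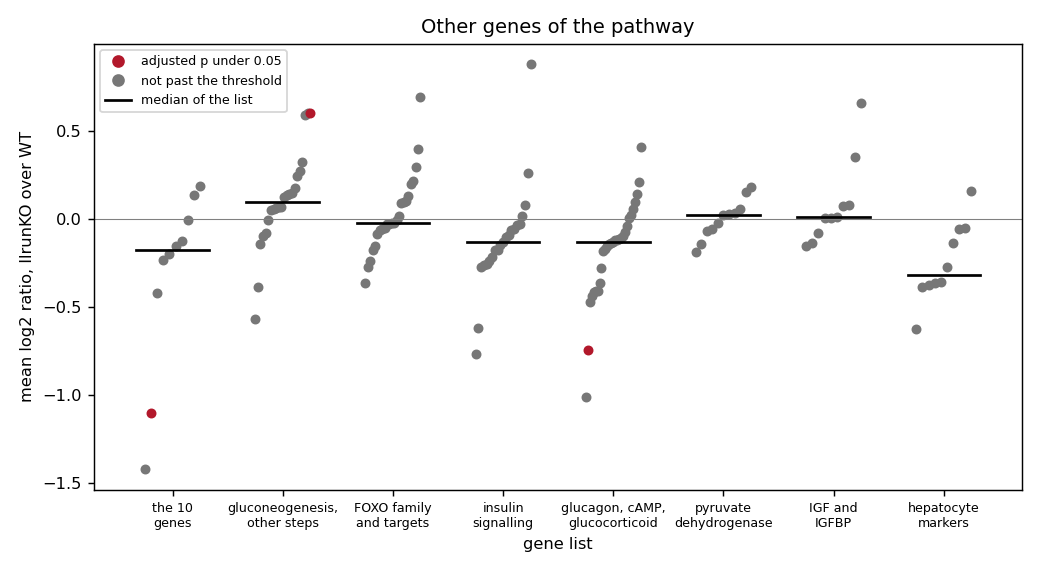
Mean log2 ratio of IlrunKO over WT (vertical axis) of each tested gene in the 10 genes, the 6 pathway lists and the hepatocyte markers (horizontal axis); bars are list medians and red points passed an adjusted p of 0.05. G6pc (-1.10), Gpt (0.61) and Fgf21 are the genes that passed. No IlrunKO channel was well above background for Fgf21, so its point rests on an IlrunKO signal near background.

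The liver identity of the samples was checked with markers. All 10 hepatocyte markers were above background, while of 6 markers of kidney and intestine, where gluconeogenic enzymes are also made, Umod, Slc12a1, Vil1 and Lct were well above background in no channel. The other two were tested and did not pass, Fabp2 at 0.47 (adjusted p = 0.293) and Slc34a1 at -0.02 (adjusted p = 0.872), and the summed level of the list ran from 14.08 to 14.58 in IlrunKO and from 13.50 to 14.21 in WT. Hepatocyte markers lay below 0 in 9 of 10 cases with a median of -0.31, against 8 and -0.17 for the 10 genes. None passed the threshold, and 8 had an unadjusted p under 0.05 in limma, against 6 of the 10 genes. Array means of the markers were -0.03, 0.04, -0.56 and -0.43. Their summed level, in log2 intensity, ran from 19.14 to 19.84 in IlrunKO and from 19.55 to 19.995 in WT. The hepatocyte array means split by dye orientation, as arrays 1 and 2 had IlrunKO in Cy5 and arrays 3 and 4 had it in Cy3. Dye and the samples on those arrays cannot be told apart. G6pc was lowest on arrays 1 and 2, and Fbp1 on arrays 3 and 4. Less RNA per hepatocyte and fewer hepatocytes cannot be told apart in whole liver. Kupffer cell and macrophage markers had a mean ratio above 0 for 8 of 8 genes. None passed the threshold, 4 had an unadjusted p under 0.05, and the summed level was 14.96 to 15.57 against 14.60 to 15.29. Their array means were -0.20, 1.00, 0.64 and 0.58. Stellate cell markers lay below 0 for 8 of 8, none past the threshold and 7 with an unadjusted p under 0.05 (14.56 to 15.07 against 15.11 to 15.20). Of 5 tested adipocyte markers, 4 had an unadjusted p under 0.05 and 2 rose, Cfd and Adrb3 (list of 8, 12.24 to 12.98 against 11.03 to 11.36). Adipoq, Plin1 and Lep were above background in no channel. Endothelial, cholangiocyte and lymphocyte lists had medians of -0.04, -0.04 and -0.09, with 1 lymphocyte marker lower. An unadjusted p under 0.05 was reached by 2 of 8, 1 of 4 and 3 of 6 of their tested genes. The part of these markers in the ratios of the 10 genes was not tested.

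**Figure D5:**
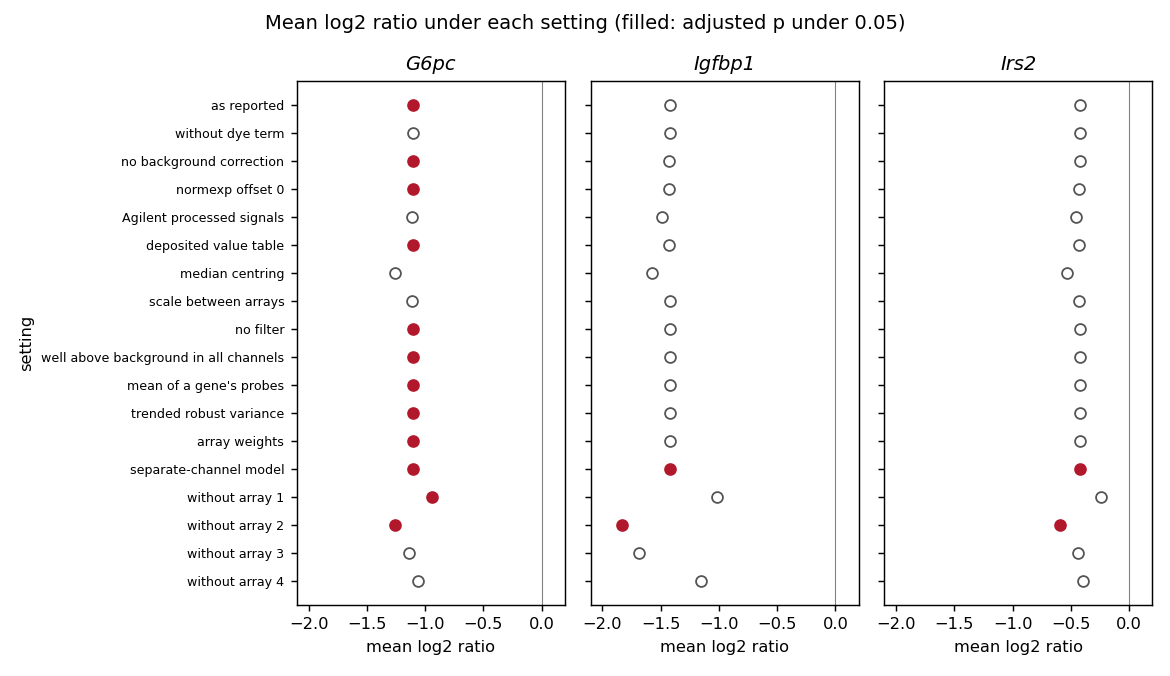
Fitted log2 ratio (genotype term) of G6pc, Igfbp1 and Irs2 (horizontal axes) under each processing setting (vertical axis). Filled points passed an adjusted p of 0.05. With an array left out, the term lies midway between the averages of the dye orientations. It stayed below 0 in every setting plotted, while the call changed with the setting. It ran from -1.26 to -0.94 for G6pc, -1.83 to -1.01 for Igfbp1 and -0.60 to -0.24 for Irs2.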

How the data were processed

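Each array's deposited scanner file holds raw intensity (spot mean and median local background in either dye) and Agilent's processed intensity, from which background and dye bias had been removed; per the file headers the software was Feature Extraction 10.10.1.1. A log10 ratio (Cy5 to Cy3) is deposited beside them. The authors also deposited log2 ratios for all arrays together. The submitters' processing notes name limma, with no settings. Against the scanner ratio, the deposited log2 columns had r = 0.956, 0.943, -0.942 and -0.951 on arrays 1 to 4 (spots above background in both channels), so all are IlrunKO over WT by the dyes in the labels; column medians ran from -0.04 to 0.04, and their background correction, normalisation and centring stay unknown.

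Raw intensity was corrected with normexp (offset 50) and normalised by loess in each array, with 1377 control spots at weight 0, in limma 3.58.1 (R 4.3.3). Between 224 and 381 outlier spots per array were left out. Levels were then made comparable by Aquantile. Probes were named by RefSeq accession (26055), symbol or synonym (4125) or the file (9249). The brightest probe stood for a gene, kept if well above background in 3 of 4 channels of either genotype (19703 of 31709; 19702 gave a p). Limma fitted genotype and dye (2 residual and 2.83 prior degrees of freedom; lmFit, eBayes), with Benjamini-Hochberg adjustment over all genes, two-sided. The p-values and intervals rest on the spread between arrays of the same dye orientation, moderated by the prior over all genes. The SD over 4 arrays given beside a ratio also holds the difference between orientations. Probe positions come from the scanner output (mm9), and the RefSeq tables are of GRCm38.p6, so no exon or UTR was assigned.

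All 10 genes were named with every probe; of each pathway list, genes past the threshold, or those with the smallest p until 2 were named; and for genes with a mean of at least 0.5 in size, the 3 nearest by pattern. The genes and lists were chosen with earlier results of these data known. The fit was tested on simulated data of this design. Alternatives covered the dye term, background, normalisation, filter, probe choice, variance model, array weights, a separate-channel model, the deposited log2 ratios, the threshold and leaving out each array. Values with an array left out are the genotype term of the fit, midway between the averages of the dye orientations. They are not plain means of the arrays left.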

Additional observations from a re-analysis of the deposited data

Results flagged for a closer look

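The Irs2 ratio on array 2, 0.11, stood apart from the other 3 arrays, which lay between -0.64 and -0.55. The gap to the nearest array was 0.884 of the whole range, above the 95% critical value of Dixon's test for 4 values. It was the 1 such case in 36 groups of 4 values checked (ratios, IlrunKO levels and WT levels of the 12 probes), and about 1 in 20 groups is marked by chance. The cause was not tested.

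Pck1 lay above 0 on both arrays with IlrunKO in Cy5 (mean 0.44) and below 0 on both arrays with IlrunKO in Cy3 (mean -0.16). The difference between the orientations did not pass in the dye term of the limma fit (adjusted p = 0.249). Dye and the samples on those arrays cannot be told apart.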

How the results depend on the processing

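Of 271 genes called, the count was 448 with no background correction, 458 in the deposited table, 420 with a trended robust variance, 62 with Agilent processed signals, 28 with scaling between arrays, 1 with median centring, 181 without the dye term, 2486 in the separate-channel model and 1127 at an adjusted p under 0.1; leaving out 1 array gave 1 to 470, with 1 without array 3 and 1 without array 4. Of the 10 genes, 1 was called as reported, 0 without the dye term, with processed signals, with median centring and with scaling, 4 in the separate-channel model (G6pc, Fbp1, Igfbp1 and Irs2), and 0 to 3 with 1 array left out. By probe this was 1, 0 without the dye term, and 0 to 2 with 1 array left out. Of the other pathway genes, 2 were called as reported, 6 with no background correction, 4 with normexp offset 0, 6 in the deposited table, 6 with the trended robust variance, 1 with processed signals, 1 when all channels had to be above background, 0 with median centring, 0 with scaling, 19 in the separate-channel model, 12 at an adjusted p under 0.1, and 0 to 3 with 1 array left out. The share of higher calls was 63.6% without array 1. Pck1 turned to -0.046 with median centring. Ppargc1a turned to 0.00697 with scaling and 0.024 with the mean of its probes, and ran from -0.11 to 0.10 with 1 array left out. The other 8 genes kept their sign in all 17 alternatives. The causes were not tested. With 4 arrays, the median half-width of the 95% interval was 0.15 on the log2 scale.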

Other observations

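The 10 genes differed in how much their ratio varied between arrays. The SD over 4 arrays was larger than that of 99.2% of genes for Igfbp1, 97.4% for G6pc, 95.5% for Slc37a4, 94.7% for Pck1, 93.0% for Fbp1 and 91.4% for Irs2. It was larger than that of 82.3% of genes for Ppargc1a, 79.5% for Pcx, 50.5% for Pdk4 and 25.8% for Foxo1. Within WT samples the level of Slc37a4 spanned 0.75, that of Igfbp1 0.75, that of Pck1 0.70, that of Ppargc1a 0.68 and that of G6pc 0.60 on the log2 scale, and within IlrunKO samples Igfbp1 spanned 1.08, Ppargc1a 0.96 and G6pc 0.71.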
